A study of Mus musculus with 5 samples.

Results

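Feedback inhibitors and target genes of the Wnt pathway were followed in colon tumors of mice that expressed human SIGLEC12 in the intestinal epithelium and of control mice without it. The 10 genes were Notum, Wif1, Nkd1, Apcdd1, Axin2, Rnf43, Znrf3, Tbx3, Sp5 and Lef1, out of 52143 genes in the deposited table, and each was found as 1 entry by its symbol. They were chosen by measured values of these same samples, in which most of them were high in SIGLEC12 replicates 2 and 3 and low in SIGLEC12 replicate 4, so their levels are described here without a test. Tumors of 5 mice were compared, 2 Control (replicates 1 and 4) and 3 SIGLEC12 (replicates 2, 3 and 4). Female mice of 8 weeks at the start received tamoxifen for 5 days, the carcinogen azoxymethane (AOM) at 10 mg/kg, and cycles of dextran sulfate sodium (DSS), an agent that damages the lining of the colon, at 2.0% for 5 days with 14 days of recovery. Tumors were taken after 4 DSS cycles, on day 87. Control mice were littermates with Villin1-Cre-ERT, a tamoxifen-inducible Cre recombinase driven by an intestinal epithelial promoter, and no knock-in. SIGLEC12 mice carried that Cre and 1 copy of a ROSA26 knock-in, from which Cre removes a floxed stop cassette and the CAG promoter then drives human SIGLEC12. The submitters describe 3 mice in each condition, so 1 more Control mouse was not analysed here. The human transgene matched no gene in the table, so the genotype label was not checked against it.

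Wnt proteins are lipid-modified ligands that bind Frizzled and LRP receptors, which stops the destruction complex from degrading beta-catenin. Beta-catenin then enters the nucleus and activates genes together with TCF and LEF factors. Several of those target genes encode inhibitors of the same pathway and so form negative feedback. In the intestine this pathway maintains the stem cells of the crypt, and in colon tumors it is commonly activated by mutation of its own components, which raises the same feedback genes.

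Promoter sequence shows whether the letters that TCF and LEF factors bind lie near a member's start. RefSeq windows (GRCm38.p6) were present for 6 of the 10 genes, Sp5, Lef1, Nkd1, Wif1, Rnf43 and Axin2, some with several starts, for 10 windows in all. Notum, Znrf3, Tbx3 and Apcdd1 had no entry. The Nkd1 window (chr8:88527383-88527632) lay inside the gene as annotated in GENCODE M21 (chr8:88521354-88594884), as did both Rnf43 windows and some Lef1 windows. The bases before the first annotated starts of Nkd1 and Rnf43 were thus not searched. The 250 bases before each start were searched on both strands for CTTTGAT, for CTTTGTT and for CTTTGAA, which share their leading letters, so that a position can match 1 of them at most. Sp5 was the single member with a match. It had 2 matches. The match to CTTTGTT was on the opposite strand, printed as AACAAAG, with its leftmost printed base 222 bases before the start. The match to CTTTGAT was on the gene's strand, with its leftmost base at 104 bases. Of all 32851 windows of that length, 12.04% held at least 1 of the motifs and 0.998% held at least 2. The Sp5 window (chr2:70474673-70474922, plus strand) is shown with the matches in capitals, beside the Axin2 window (chr11:108920099-108920348, plus strand), a widely used Wnt target in which these letters did not occur. The absence of the letters from a window says nothing about binding elsewhere in the gene.
Sp5: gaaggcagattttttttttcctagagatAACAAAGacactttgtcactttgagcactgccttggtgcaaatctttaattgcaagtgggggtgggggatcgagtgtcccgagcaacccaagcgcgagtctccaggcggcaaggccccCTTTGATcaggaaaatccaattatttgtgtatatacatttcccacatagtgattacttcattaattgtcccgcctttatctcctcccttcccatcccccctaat
Axin2: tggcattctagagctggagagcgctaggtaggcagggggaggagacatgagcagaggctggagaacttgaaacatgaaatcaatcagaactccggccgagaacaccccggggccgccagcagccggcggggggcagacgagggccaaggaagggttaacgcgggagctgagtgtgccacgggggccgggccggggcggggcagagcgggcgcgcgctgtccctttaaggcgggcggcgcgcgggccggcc

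Expression is given as log2(TPM + 1), the scale of the deposited table, in which TPM is a gene's length-adjusted share of all RNA in its sample. The sequencing depth behind them is unknown, because TPM keeps none. Between 7947 genes (Control replicate 1) and 10090 genes (SIGLEC12 replicate 2) had a TPM of at least 1. Protein-coding genes took 5.70% to 9.72% of the TPM, less in both Control samples than in any SIGLEC12 sample, so the median difference of all 10338 tested genes between the groups was 0.38 in favour of SIGLEC12. It was 0.01 after each sample was rescaled to the same protein-coding total, and both scales are given where they differ. Tested genes were those that reached a TPM of 1 in 2 or more samples. Of the genes past an unadjusted p of 0.05 and 2-fold, 89.9% were higher in SIGLEC12 as deposited and 21.1% after rescaling. Columnar epithelial markers were present in every sample, with a mean of 4.27 log2 units in Control replicate 1 and of 5.61 to 6.50 in the others. Squamous keratinocyte markers were also present, at 7.13 in Control replicate 1 and 4.73 to 5.89 in the others, although the label of every sample is colon.

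Across the 10 members, every sample had its own level. Summed TPM was 4.76 in Control replicate 1, 18.1 in Control replicate 4, 29.8 in SIGLEC12 replicate 2, 59.4 in SIGLEC12 replicate 3 and 11.9 in SIGLEC12 replicate 4. The sum in SIGLEC12 replicate 3 was thus 4.99 times that in replicate 4 of the same genotype. The number of members with a TPM of at least 1 was 2, 6, 8, 10 and 3 in the same order of samples. In bulk tumor RNA, fewer cells that express these genes and less RNA per cell cannot be told apart.

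**Figure D1:**
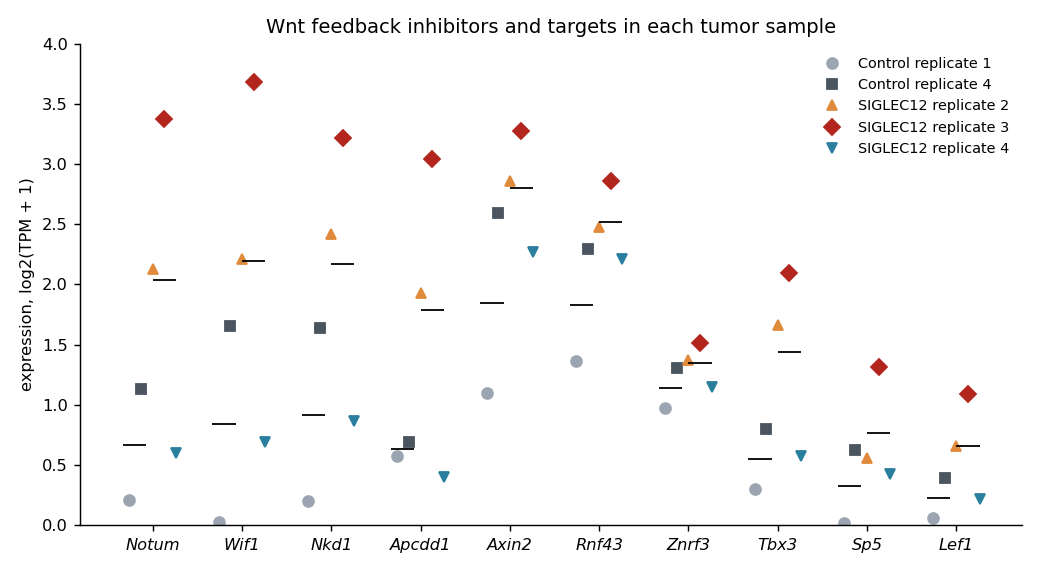
Expression of the 10 members as log2(TPM + 1) on the vertical axis, with 1 point per tumor sample and black bars at the mean of each group (2 Control and 3 SIGLEC12 samples). SIGLEC12 replicate 3 is the highest point for 10 of 10 genes and SIGLEC12 replicate 4 lies below Control replicate 4 for 10 of 10, so the groups overlap for every gene.

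Among the inhibitors that act outside the cell or at its surface, Notum, an enzyme that removes the lipid from Wnt proteins, was measured at 0.21 and 1.13 log2 units in Control replicates 1 and 4 and at 2.13, 3.38 and 0.60 in SIGLEC12 replicates 2, 3 and 4. SIGLEC12 replicates 2 and 3 were above both Control samples, whereas replicate 4 lay between them. Notum (ENSMUSG00000042988) lies at chr11:120653788-120661175 on the minus strand of GRCm38. The group means were 0.67 ± 0.65 (SD, n = 2) and 2.04 ± 1.39 (SD, n = 3), a difference of 1.37 that was smaller than the SD of the SIGLEC12 samples. In TPM, Notum was 9.40 in SIGLEC12 replicate 3 and 0.518 in replicate 4, a ratio of 18.2.

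Wif1, a secreted protein that binds Wnt ligands directly, had the widest range of the 10 genes at 3.66 log2 units. It was 0.02 and 1.66 in Control replicates 1 and 4 and 2.21, 3.68 and 0.69 in SIGLEC12 replicates 2, 3 and 4. Control replicate 4 therefore stood closer to SIGLEC12 replicate 2 than to the other Control. The group means were 0.84 ± 1.16 (SD, n = 2) and 2.20 ± 1.50 (SD, n = 3). Wif1 (ENSMUSG00000020218) lies at chr10:121033960-121100650 on the plus strand.

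Apcdd1, a membrane protein that inhibits Wnt signaling at the receptor, was the single member for which Control replicate 1 was not the lowest sample. It was 0.57 and 0.69 in Control replicates 1 and 4, and 1.93, 3.04 and 0.40 in SIGLEC12 replicates 2, 3 and 4. The Control samples lay close together, at 0.63 ± 0.08 (SD, n = 2), and the lowest of all 5 samples was SIGLEC12 replicate 4. The TPM ratio of SIGLEC12 replicate 3 to replicate 4 was 22.9, the highest of the members, and that of replicate 2 to replicate 4 was 8.86. Apcdd1 (ENSMUSG00000071847) is on chromosome 18.

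Rnf43 and Znrf3 are membrane ubiquitin ligases that remove Frizzled receptors from the cell surface, and they varied least among the 8 members that passed the filter on low values. Rnf43 (ENSMUSG00000034177, chr11:87662722-87735539, plus strand) was 1.36 and 2.29 in Control replicates 1 and 4 and 2.48, 2.86 and 2.21 in SIGLEC12 replicates 2, 3 and 4. Its low value was thus that of Control replicate 1, and the other 4 samples spanned 2.21 to 2.86. Znrf3 (ENSMUSG00000041961, chr11:5276324-5444847, minus strand) was 0.97 and 1.31 in the Control samples and 1.38, 1.51 and 1.15 in the SIGLEC12 samples, a range of 0.54. Its difference between the groups, 0.21, became -0.11 after rescaling to the protein-coding total, so no direction was taken for Znrf3.

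Inside the cell, Axin2 is a scaffold of the destruction complex and Nkd1 binds Dishevelled, the adaptor below the receptors. Axin2 (ENSMUSG00000000142, chr11:108920349-108950783, plus strand) was 1.10 and 2.59 in Control replicates 1 and 4 and 2.86, 3.27 and 2.27 in SIGLEC12 replicates 2, 3 and 4. Apart from Control replicate 1, the samples lay within 2.27 to 3.27. The difference of 0.95 between the group means fell to 0.21 without Control replicate 1. Nkd1 (ENSMUSG00000031661, chr8:88521354-88594884, plus strand) was 0.20 and 1.64 in the Control samples and 2.42, 3.22 and 0.86 in the SIGLEC12 samples. For Nkd1 as for Wif1, SIGLEC12 replicate 4 was lower than Control replicate 4, with a TPM ratio of Control replicate 4 to SIGLEC12 replicate 4 of 2.58 for Nkd1 and 3.52 for Wif1.

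Tbx3, Sp5 and Lef1 are transcription factors. Tbx3, a T-box repressor (ENSMUSG00000018604, chr5:119670669-119684724, plus strand), was 0.30 and 0.79 in Control replicates 1 and 4 and 1.66, 2.09 and 0.57 in SIGLEC12 replicates 2, 3 and 4. SIGLEC12 replicates 2 and 3 were above both Control samples and replicate 4 was between them. Sp5, a zinc-finger factor of the Sp family (ENSMUSG00000075304, chr2:70474923-70477729, plus strand) and the member with motif matches in its promoter window, was 0.02 and 0.62 in the Control samples and 0.55, 1.31 and 0.43 in the SIGLEC12 samples. It was the single member in which SIGLEC12 replicate 2 did not exceed Control replicate 4. Lef1, a nuclear partner of beta-catenin (ENSMUSG00000027985, chr3:131110471-131224356, plus strand), was 0.06 and 0.39 in the Control samples and 0.66, 1.09 and 0.21 in the SIGLEC12 samples. Sp5 and Lef1 reached a TPM of 1 in SIGLEC12 replicate 3 alone, so they did not pass the filter and their ratios rest on low values.

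The members also differed in how far they were spread between the SIGLEC12 samples. The TPM ratio of SIGLEC12 replicate 3 to replicate 4 was 10.2 to 22.9 for Nkd1, Notum, Wif1 and Apcdd1, 4.31 to 7.07 for Sp5, Tbx3 and Lef1, and 1.52 to 2.27 for Znrf3, Rnf43 and Axin2. As a result the order of the genes by TPM changed between samples. Axin2 and Rnf43 held the top 2 places among the members in Control replicates 1 and 4 and in SIGLEC12 replicates 2 and 4. In SIGLEC12 replicate 3, Wif1 at 11.8 TPM and Notum at 9.40 TPM stood above Axin2 at 8.68, and Rnf43 at 6.25 was in place 6.

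**Figure D2:**
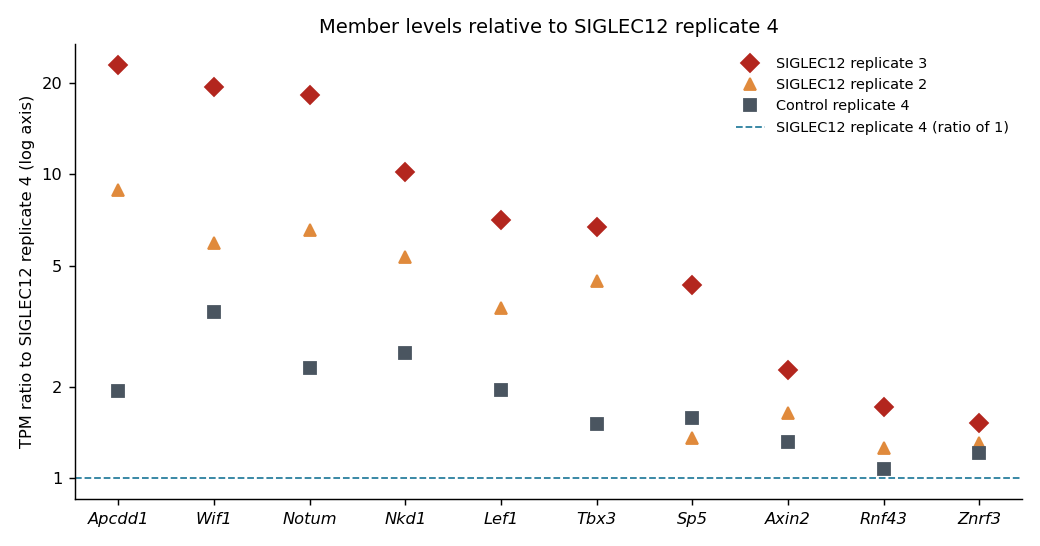
TPM of each member in SIGLEC12 replicate 3, SIGLEC12 replicate 2 and Control replicate 4, divided by its TPM in SIGLEC12 replicate 4, on a log axis, with 1 point per sample and the dashed line at a ratio of 1. The ratios of SIGLEC12 replicate 3 run from 1.52 for Znrf3 to 22.9 for Apcdd1, and Control replicate 4 lies above the line for all 10 genes.

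The pattern that chose the members was counted beside its share among all tested genes, as a description. SIGLEC12 replicates 2 and 3 were each above the other 3 samples for 9 of 10 members, all but Sp5, and for 17.6% of tested genes. Both were at least 2-fold above SIGLEC12 replicate 4, on the log2(TPM + 1) scale, for 5 members, a pattern held by 0.793% of tested genes. Control replicate 4 was above SIGLEC12 replicate 4 for 10 of 10 members and for 19.6% of tested genes. The order from SIGLEC12 replicate 3 through SIGLEC12 replicate 2, Control replicate 4 and SIGLEC12 replicate 4 down to Control replicate 1 occurred for 8 members, all but Sp5 and Apcdd1, and for 1.57% of tested genes. After rescaling to the protein-coding total, these 3 patterns without a fold limit held for 6, 10 and 5 members, against 15.4%, 58.2% and 2.9% of tested genes.

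**Figure D3:**
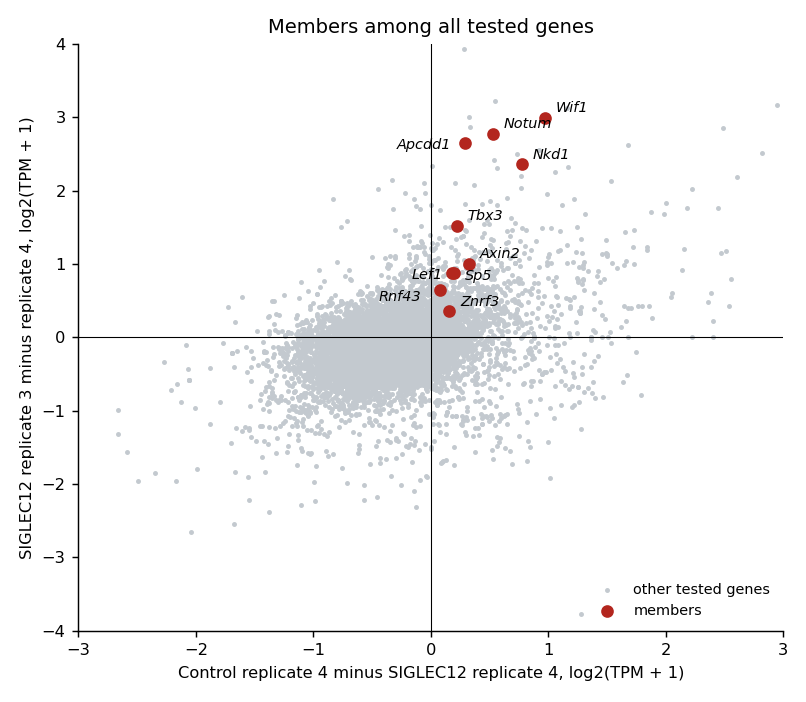
Difference in log2(TPM + 1) between Control replicate 4 and SIGLEC12 replicate 4 (horizontal) and between SIGLEC12 replicates 3 and 4 (vertical), with the 10 members in red (Sp5 and Lef1, which did not pass the filter, included) and 10330 other tested genes in grey, of which 14 fall outside the axes. All 10 members lie above 0 on both axes, and Wif1, Notum, Apcdd1 and Nkd1 lie farthest up.

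Because the members were chosen for a low SIGLEC12 replicate 4, their overlap between the genotypes was largely fixed by that choice and is given without a reading. SIGLEC12 was above Control without overlap for 0 of 10 members (54.1% of tested genes as deposited, 15.6% after rescaling) and below it for 0 of 10 (1.67% and 16.8%). The SIGLEC12 mean was above the Control mean for 10 of 10 members as deposited and for 9 of 10 after rescaling, with Znrf3 reversed. The median difference of the members was 0.92, beside 0.38 for all tested genes, and 0.62 beside 0.01 after rescaling. For 7 members the difference was smaller than the larger of the group SDs, and for Nkd1, Rnf43 and Tbx3 it was larger. The median difference was 0.40 without Control replicate 1, 1.19 without Control replicate 4, 0.55 without SIGLEC12 replicate 3 and 1.28 without SIGLEC12 replicate 4. For all tested genes it was 0.26, 0.52, 0.42 and 0.35 in the same order. Members above that median numbered 6, 9, 7 and 9, beside 9 with all samples.

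Columnar epithelial and cycling-cell markers were both highest in SIGLEC12 replicate 4, a sample of low member levels. The mean of 10 epithelial markers, such as Epcam and Cdh1, was 4.27 and 5.61 log2 units in Control replicates 1 and 4 and 5.96, 5.93 and 6.50 in SIGLEC12 replicates 2, 3 and 4, and 3 members reached a TPM of 1 in replicate 4. The mean of 10 cycling-cell markers was 3.05 in SIGLEC12 replicate 4 and 2.02 to 2.61 in the others. The epithelial mean was then subtracted from every gene of a sample, the most in SIGLEC12 replicate 4 and the least in Control replicate 1. Relative to it, the patterns with SIGLEC12 replicate 3, or replicates 2 and 3, highest were rarer in members and in all tested genes. This is given without a reading. SIGLEC12 replicate 3 was then highest for 6 members instead of 10 (2.04% of tested genes, beside 19.7% as deposited). SIGLEC12 replicates 2 and 3 were each above the other 3 samples for 3 members, Notum, Wif1 and Nkd1, instead of 9. The share of tested genes with that pattern was 0.764%, beside 17.6% as deposited. The full order occurred for 0 members instead of 8 (0.0677% of tested genes, beside 1.57% as deposited). Znrf3 was lower in SIGLEC12 without overlap on this scale, where the median difference of all tested genes was -0.81. The share of tested genes that did the same was not counted. Control replicate 4 was above SIGLEC12 replicate 4 for 10 of 10 members on this scale, as it was for 93.6% of tested genes.

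Control replicate 1, lowest for 9 of 10 members and for 70.2% of tested genes, was lowest for 0 of 10 members (0.377% of tested genes) relative to the epithelial mean. It was lowest in columnar epithelium and highest in squamous markers, whose summed TPM was 2986 there and 354 to 964 in the others. Absorptive colonocyte markers had a mean of 3.75 and 5.09 in Control replicates 1 and 4 and 4.59, 4.13 and 4.23 in the SIGLEC12 samples, and goblet cell markers 5.02, 6.03, 6.37, 6.11 and 5.78 in that order. The part of these cell types in the level of the members was not tested.

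Myeloid markers, like the members, were higher in SIGLEC12 replicates 2 and 3 than in replicate 4. So were goblet cell markers, at 6.37 and 6.11 against 5.78, and, at low levels, T cell and B and plasma cell markers. Like the members, the goblet cell list was also higher in Control replicate 4 (6.03) than in SIGLEC12 replicate 4 and lowest in Control replicate 1 (5.02). The mean of 6 myeloid markers was 1.13 and 0.59 in Control replicates 1 and 4 and 1.55, 1.52 and 0.67 in SIGLEC12 replicates 2, 3 and 4. Their summed TPM ranged from 3.45 to 8.94 in Control and from 4.39 to 19.5 in SIGLEC12. The macrophage lysozyme gene Lyz2 was 3.20 and 3.86 in SIGLEC12 replicates 2 and 3 and 1.83 in replicate 4. Adgre1, which defines mature macrophages, was low but had the same split, at 0.31 and 0.32 in SIGLEC12 replicates 2 and 3 and 0.08 in replicate 4. Unlike the members, the myeloid list was higher in Control replicate 1 than in Control replicate 4. Fibroblast markers had a mean of 1.02 and 1.11 in Control and of 2.58, 1.40 and 1.76 in SIGLEC12, smooth muscle markers one of 3.05, 3.21, 4.22, 2.99 and 3.10, and endothelial markers one of 0.28, 0.30, 0.98, 0.52 and 0.66, each highest in SIGLEC12 replicate 2. All 6 T cell markers and 4 of 5 B and plasma cell markers were below a TPM of 1 in every sample. Whether myeloid or stromal cells had a part in the members' levels was not tested.

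**Figure D4:**
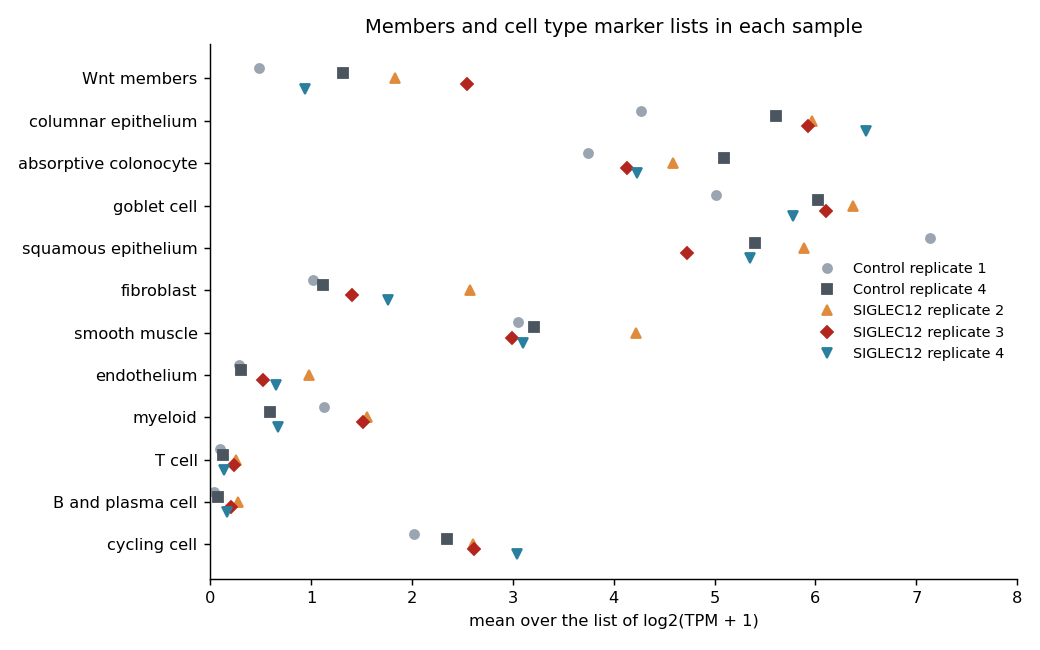
Mean log2(TPM + 1) over the 10 Wnt members and over each cell type marker list (horizontal axis), with 1 point per tumor sample. SIGLEC12 replicate 4 is the highest sample for columnar epithelium (6.50) and second lowest for the members (0.94). The myeloid list is higher in SIGLEC12 replicates 2 and 3 (1.55 and 1.52) than in replicate 4 (0.67), as is the goblet cell list (6.37 and 6.11 against 5.78).

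The wider pathway was tested with genes that are not members. Of 101 such genes in the table, 52 passed the filter, and 41 were below a TPM of 1 in all samples. None of the 52 differed between SIGLEC12 and Control by limma at a Benjamini-Hochberg adjusted p under 0.05 and 2-fold, as 0% of all tested genes did, and the smallest adjusted p in the list was 0.101. At an unadjusted p under 0.05, 15 of 52 passed, beside 34.3% of all tested genes. With a 2-fold change as well, 3 passed as higher, beside 3.97%, and 1 as lower, beside 0.445%. The 4 genes were Mmp7, Smoc2, Slc12a2 and Olfm4. The direction of these counts turned after rescaling to the protein-coding total, with 0 higher (0.368% of all tested genes) and 2 lower, Wnt4 and Olfm4 (1.37%). The median difference of the 52 genes was 0.31, close to the 0.38 of all genes, with 42 higher and 10 lower, and -0.12 after rescaling, with 21 higher and 31 lower. The counts rested on Control replicate 4. Without it, 11 of the 52 genes and 1059 of all tested genes passed the adjusted threshold (limma, where the spread of the lone Control is taken from the SIGLEC12 samples). Of those 11, Mmp7, Slc12a2, Smoc2, Sox9, Cdx1, Ccnd1, Lgr5, Tle1 and Lgr4 were higher and Olfm4 and Wnt4 lower in SIGLEC12.

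Most ligands were at low levels. Of 19 Wnt ligand genes 14 were below a TPM of 1 in every sample. Wnt4, a ligand of the canonical and other branches, was 2.32 and 1.32 in Control and 1.23, 0.98 and 0.93 in SIGLEC12, and Wnt7b was 1.67 and 1.11 against 0.97, 0.92 and 0.66. Control replicate 1, the sample rich in squamous markers, was highest for both ligands. Of all listed pathway genes that did not pass the filter, Wnt6 and Wnt5b alone had the order of samples seen for most members. They were named after their values were seen, and that order rests on low values. Wnt6 was 0.02 and 0.28 in Control, then 0.63, 1.55 and 0.21 in SIGLEC12. Wnt5b was at most 0.25, with a TPM of 0.044 in Control replicate 4 and 0.042 in SIGLEC12 replicate 4. Wls, which carries Wnt proteins to the cell surface, was 2.90 and 2.99 in Control and 3.43, 3.48 and 3.65 in SIGLEC12. The R-spondin receptor Lgr5, a marker of crypt stem cells, was 0.15 and 1.68 in Control and 1.10, 1.41 and 1.47 in SIGLEC12, so Control replicate 4 was the highest sample and Control replicate 1 the lowest. Its relative Lgr4 was 2.79 and 3.33 against 3.96, 3.63 and 3.87, without overlap, as for 54.1% of tested genes as deposited. The Lgr4 difference of 0.76 was 0.26 after rescaling. SIGLEC12 was higher without overlap for 15 of the 52 pathway genes as deposited and for 1 after rescaling (15.6% of tested genes). It was lower without overlap for 3 as deposited (5.77%, beside 1.67% of tested genes) and for 14 after rescaling (26.9%, beside 16.8%). The receptor Fzd5 was 1.19 and 1.94 in the Control samples, and in SIGLEC12 it was 2.60, 1.91 and 2.57. Fzd7 was 0.72 and 1.28 in the Control samples, and in SIGLEC12 it was 1.69, 1.41 and 1.52. For both receptors SIGLEC12 replicate 4 was above SIGLEC12 replicate 3, unlike the members.

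Among the other inhibitors, Dkk2, a secreted antagonist that binds LRP receptors, had the order of the members. It was 0.05 and 0.63 in Control replicates 1 and 4 and 1.19, 1.95 and 0.42 in SIGLEC12 replicates 2, 3 and 4, with a difference of 0.85 (SE 0.45, adjusted p = 0.21 by limma). Kremen1, a Dkk receptor, was 1.49 and 1.47 in Control and 1.62, 1.36 and 1.42 in SIGLEC12. In the destruction complex and its regulators, the tankyrase Tnks2 was 2.60 and 3.15 against 3.14, 3.13 and 3.44. Of the 11 tested genes of that group, 0 had SIGLEC12 replicates 2 and 3 above the other 3 samples, beside 17.6% of all tested genes. With 11 genes, that count is given without a reading. Dvl2, which did not pass the filter, had that pattern, at 0.62 and 0.88 in Control replicates 1 and 4 and 0.97, 0.92 and 0.85 in SIGLEC12 replicates 2, 3 and 4. It was named after its values were seen, and genes of other roles below the filter, such as Fzd2 and Tpbg, had the pattern too. Beta-catenin itself (Ctnnb1) was 4.60 and 5.19 in Control and 5.60, 5.46 and 5.60 in SIGLEC12. Its groups did not overlap, as for 54.1% of tested genes as deposited. The Ctnnb1 difference was 0.66 (SE 0.26, adjusted p = 0.132 by limma) and 0.12 after rescaling. Of the nuclear factors, Tcf7 was 0.88 and 1.21 in Control and 1.50, 1.93 and 1.21 in SIGLEC12, and the corepressor Tle1 was 0.90 and 1.72 against 2.06, 1.93 and 1.92.

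Target genes of the intestine differed in how far they were like the members. Mmp7, a matrix metalloproteinase of intestinal tumors and Paneth cells, was 0.45 and 2.98 in Control replicates 1 and 4 and 4.06, 5.31 and 2.97 in SIGLEC12 replicates 2, 3 and 4. The Control replicate 4 and SIGLEC12 replicate 4 values of Mmp7 were nearly equal, and its difference between genotypes was 2.40 (SE 0.89, adjusted p = 0.123 by limma). Olfm4, whose place in this list of Wnt targets was not tested, was 3.65 and 1.07 in Control and 0.71, 0.68 and 0.11 in SIGLEC12. Its difference was -1.86 (SE 0.69, adjusted p = 0.123 by limma), and Control replicate 1 was far above the rest. In the list of 52 genes, SIGLEC12 replicates 2 and 3 were each above the other 3 samples for 11 genes (21.2%), near the 17.6% of all tested genes, and the full order of the members occurred for 6 (11.5%, beside 1.57%). After rescaling the counts were 7 (13.5%, beside 15.4%) and 4 (7.69%, beside 2.9%). The 6 in deposited values were Mmp7, Dkk2, Tcf7, Ascl2, Sox4 and Prox1, and the 4 after rescaling were Mmp7, Dkk2, Ascl2 and Sox4, named after their values were seen. Prox1, a homeobox factor of colon tumors, was 0.06 and 1.38 in Control and 1.58, 2.10 and 0.60 in SIGLEC12. Sox4 was 1.20 and 2.33 against 2.69, 2.89 and 2.01, and Ascl2, the stem cell regulator, was 0.39 and 0.95 against 1.19, 1.63 and 0.88.

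**Figure D5:**
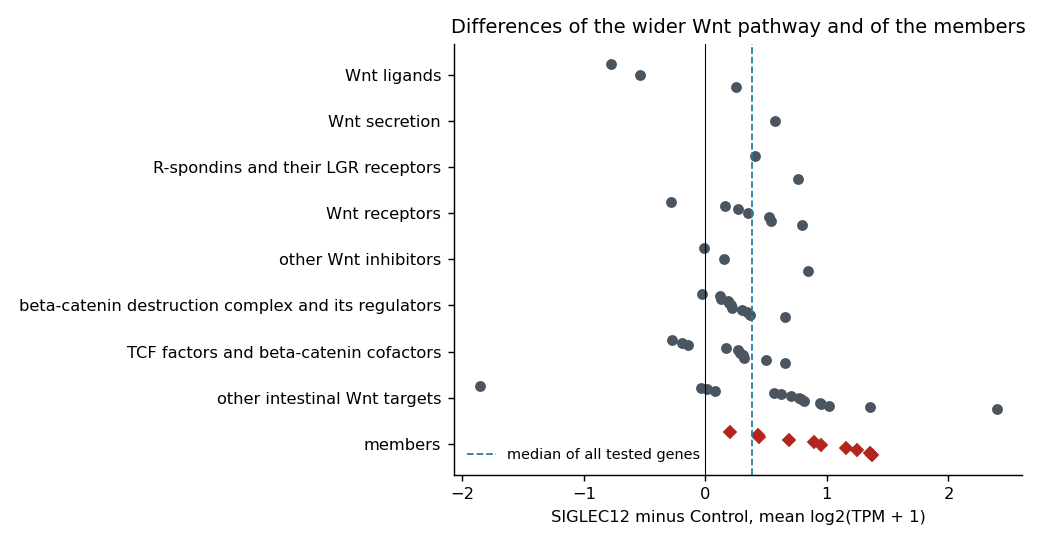
Difference between the SIGLEC12 and Control means in log2(TPM + 1) for the 52 tested pathway genes, 1 point per gene in rows by role, and for the 10 members in red, with the dashed line at the median of all tested genes (0.38). Mmp7 (2.40) and Olfm4 (-1.86) lie farthest from 0, and the members run from 0.21 to 1.37.

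Genes of like pattern were sought among 6190 tested genes, by the root mean square distance between profiles over the 5 samples after each gene's own mean was removed. The nearest to the median profile of the members were Tmem37, Slc25a20, Rhoc, Ccl6 and Clec2h, at distances of 0.09 to 0.14 log2 units, beside a median distance of 0.57. Tmem37 was 0.55 and 1.56 in Control replicates 1 and 4 and 1.86, 2.32 and 1.15 in SIGLEC12 replicates 2, 3 and 4. Nearest to Notum was Spp1, the gene of osteopontin, at a distance of 0.16. Its levels were 0.55 and 1.18 in the Control samples, then 2.08, 3.71 and 0.85 in SIGLEC12 replicates 2, 3 and 4. It was followed by Car3, Plat, Ecscr and Spink1. Nearest to Wif1 were Ckm, Spock2, Spp1, Tnfrsf11b and Mylpf, at distances of 0.32 to 0.34. Ckm and Mylpf encode proteins of skeletal muscle, and Ckm was 0.41 and 2.73 in Control and 2.88, 4.49 and 1.99 in SIGLEC12. Among the members themselves, Sp5 and Lef1 had the closest profiles (0.15), Notum and Nkd1 (0.24) and Notum and Wif1 (0.24) were also close, and Wif1 and Znrf3 were farthest apart (1.09).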

How the data were processed

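RNA from 5 tumors was sequenced, and genotypes were taken from the sample labels. The authors deposited 1 table of log2(TPM + 1) for 52143 Ensembl genes, in which every sample has the same TPM total. The submitters' processing notes name kallisto 0.45.0 and GRCm38, while the study's methods name kallisto with a human reference. The labels name a stranded total RNA kit and the methods an mRNA kit, and how TPM were summed per gene is not stated. Depth is unknown, so no counting interval was given, and the number of samples limits precision. Coordinates and biotypes came from GENCODE M21 (GRCm38), which held 98.45% of the gene identifiers.

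The members and gene lists were chosen with earlier results of these data known. The members got no test. All genes with a TPM of at least 1 in at least 2 samples (10338) were fitted with limma 3.58.1 in R 4.3.3 (eBayes with a trend of variance on mean, no covariate, two-sided) on log2(TPM + 1), with Benjamini-Hochberg adjustment over all of them. A fold change on this scale understates the change of low genes. The study's methods name DESeq2, which needs counts and was not used. A call needed an adjusted p under 0.05 and a 2-fold change, and the study's P of at most 0.05 with 2-fold was counted beside it. Pathway genes named by rule were, per role, the 2 with the largest absolute difference at a mean TPM of at least 1. Others were named after their values were seen, because they passed a count or had a sample pattern of the members. Like patterns needed a mean TPM of at least 2. Promoters came from RefSeq tables (GRCm38.p6). The fit was tested on simulated data. Alternatives were a smaller pseudocount (0.1), all genes without a filter, a minimum TPM of 5, scaling to the protein-coding total, by median-ratio size factors, by quantiles or to epithelial markers, sample quality weights, and leaving out each sample. The submitters describe the samples as different mice. The methods add that 3 technical libraries were made from a sample, and the sources do not say whether a deposited column combines them, so the SDs are those between the deposited columns.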

Additional observations from a re-analysis of the deposited data

How the results depend on the processing

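The count of pathway genes called stayed at 0 of those tested with the pseudocount at 0.1, without a filter, with a minimum TPM of 5, and with scaling to the protein-coding total, median-ratio size factors, quantile normalization and sample quality weights, and the count over all genes stayed at 0 under the same settings. Relative to the columnar epithelial markers, 167 genes were called in all, 2 of them in the pathway list (Olfm4 and Wnt4, both lower in SIGLEC12), and the median difference of the members was -0.26, with 3 of 10 higher. This scaling lowers every gene in SIGLEC12 by the same amount by its construction, and the median of all genes became -0.81. Leaving out each sample in turn gave 0 to 1059 calls over all genes and 0 to 11 in the pathway list, the highest values without Control replicate 4, and 1 call over all genes without SIGLEC12 replicate 4. The median difference of the members was lowest at 0.40 (without Control replicate 1) and highest at 1.28 (SIGLEC12 replicate 4 left out), with 10 of 10 higher each time. In those settings the median of all tested genes was 0.26 and 0.35, and 6 and 9 members were above it. The members' median difference was 1.56 with a pseudocount of 0.1, 0.62 with median-ratio size factors and 0.60 with quantile normalization. Znrf3 was -0.11, -0.11 and -0.07 with the protein-coding, median-ratio and quantile scalings, and no other member changed sign under those. No paired analysis was possible because a single replicate number, 4, occurs in both genotypes.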
